A study of Homo sapiens with 6 samples.

Results

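The 34 genes described here encode proteins of homologous recombination, of the Fanconi anaemia pathway and of the DNA damage checkpoint that works with them. They were chosen by gene symbol from a table of 21872 rows, and all 34 were found and had enough counts to test, among 12293 genes tested. Their RNA was measured by sequencing in 3 libraries of cells labelled knockout for HuR and 3 control libraries. All came from MOC2, a line grown from an oral carcinoma of the mouse. HuR is encoded by Elavl1; it binds mRNAs and stabilises many of them. Both groups were treated with lentiviral particles carrying Crispr/Cas9, against HuR in the knockout cells and as a control construct in the others, and both were grown in the same serum-containing medium. The titles call the knockout libraries knockdown, while their genotype label is Knockout. The design text calls the libraries biological triplicates, but the labels speak of a single clone for the loss of HuR, and nothing says that the 3 knockout libraries are separate clones. The spread that the p-values rest on is that between libraries, and may be technical. The sample labels name human as the species, whereas the series title says mouse and the gene symbols are written as for mouse.

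Homologous recombination repairs double-strand breaks by copying the intact sister chromatid, and is used mainly in S and G2 phase. BRCA1 with its partner BARD1 starts the process, and PALB2 links BRCA1 to BRCA2, which acts on the resected single-stranded DNA. The Fanconi core complex marks the FANCD2 and FANCI proteins with ubiquitin at DNA crosslinks, which then recruit nucleases and recombination proteins. ATM responds to double-strand breaks, and ATR, through TOPBP1, claspin and CHK1, to stalled replication. Inherited loss of the Fanconi pathway is known for a high risk of head and neck squamous cell carcinoma, and many of these genes are transcribed under E2F control as cells enter S phase.

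The libraries held 16158516 to 21294330 counts, and single repair genes had 20 to 3409 counts in a knockout library and 87 to 4005 counts in a control library. Elavl1, the targeted gene, had 116, 114 and 105 CPM in knockout, against 107, 119.7 and 117 CPM in control (adjusted p = 0.82, and 0.962 without knockout library 3). The groups overlapped, and a gene-level count does not show a sequence change made by Cas9, so it does not check the labels. CPM stands for counts scaled to a common library total after TMM scaling, and 3 values for a group are those of its libraries 1, 2 and 3 in that order. Unless stated otherwise, p-values are from edgeR's quasi-likelihood test, adjusted by the Benjamini-Hochberg method over all genes tested. Knockout library 3 stood apart: log2 CPM correlated at 0.924 and 0.931 between it and knockout libraries 1 and 2 (Pearson's r over genes, a description), and at 0.978 between knockout libraries 1 and 2. Its values are therefore given apart, and the test of each repair gene and the counts of the pathway lists are given with and without it. The 12 epithelial markers summed to between 5918 and 8736 CPM in knockout libraries and between 11613 and 14212 CPM in control libraries. Krt7 and Krt19 made up most of the sum in every library, and they differed. Krt7 had 2142, 1673 and 1854 CPM in knockout, against 4584, 4323 and 3716 CPM in control. Krt19 had 4161, 3321 and 2594 CPM in knockout, against 2997, 2702 and 2764 CPM in control, with overlap. Some smaller parts of the sum fell by more than Krt7. Epcam had 55.1, 25.3 and 30.4 CPM in knockout, against 620, 504 and 501 CPM in control. Cdh1 had 66.6, 30.7 and 36.7 CPM in knockout, against 684, 557 and 556 CPM in control. Cldn4 had 43.5, 12.1 and 14.9 CPM in knockout, against 579, 529 and 468 CPM in control. For 8 of the 11 tested, all knockout libraries lay below control, and for 0 above, against 27.9% and 29.7% of all genes tested. Krt19, Krt6a and Dsp overlapped control. The 12 fibroblast markers summed to between 2420 and 4582 CPM in knockout and between 5.01 and 12.8 CPM in control, although the fibroblast markers Col1a2, Dcn, Lum, Postn, Thy1 and Fap stayed under 1 CPM in every library. Col6a1, with 1246, 1638 and 2812 CPM, and Col6a2, with 744, 1055 and 1362 CPM, made up most of the knockout sums. For 5 of the 6 tested, all knockout libraries lay above control, and for 0 below, against 29.7% and 27.9% of all genes tested. The 8 endothelial markers summed to between 177 and 269.8 CPM in knockout and between 20.9 and 34.3 CPM in control, with Pecam1, Cdh5, Kdr, Tek and Vwf under 1 CPM in every library. Flt1 alone made up most of this sum, with 208, 163 and 259 CPM in knockout, against 26.2, 14.8 and 27.7 CPM in control. Of 8 leukocyte markers only Cd68 passed 1 CPM in any library, with 3.11, 1.76 and 36.9 CPM in knockout, against 5.80, 2.16 and 3.65 CPM in control. The part of these markers in the results below was not tested. All 13 mitochondrial gene rows were at 0 in every library, so they give no measure of RNA quality.

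Summed over the 34 genes, repair gene RNA was somewhat lower in knockout libraries 1 and 2 than in control, and far lower in knockout library 3. Their summed level was 1057, 1009 and 406 CPM in knockout, against 1185, 1286 and 1283 CPM in control. All 3 knockout sums lay below all control sums, and knockout library 3 held less than the other knockout libraries by more than they differed from control. It was the lowest of all 6 libraries for 29 of the 34 genes, where 31.8% of all genes tested were lowest in it, and the highest for none, where the background was 33.7%. In 23 of the 34 it stood under 50% of the mean of knockout libraries 1 and 2, against 11% of all genes tested, and in 13 under 25%, against 3.76%. Bulk RNA cannot tell fewer cells that express these genes from less RNA per cell.

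**Figure D1:**
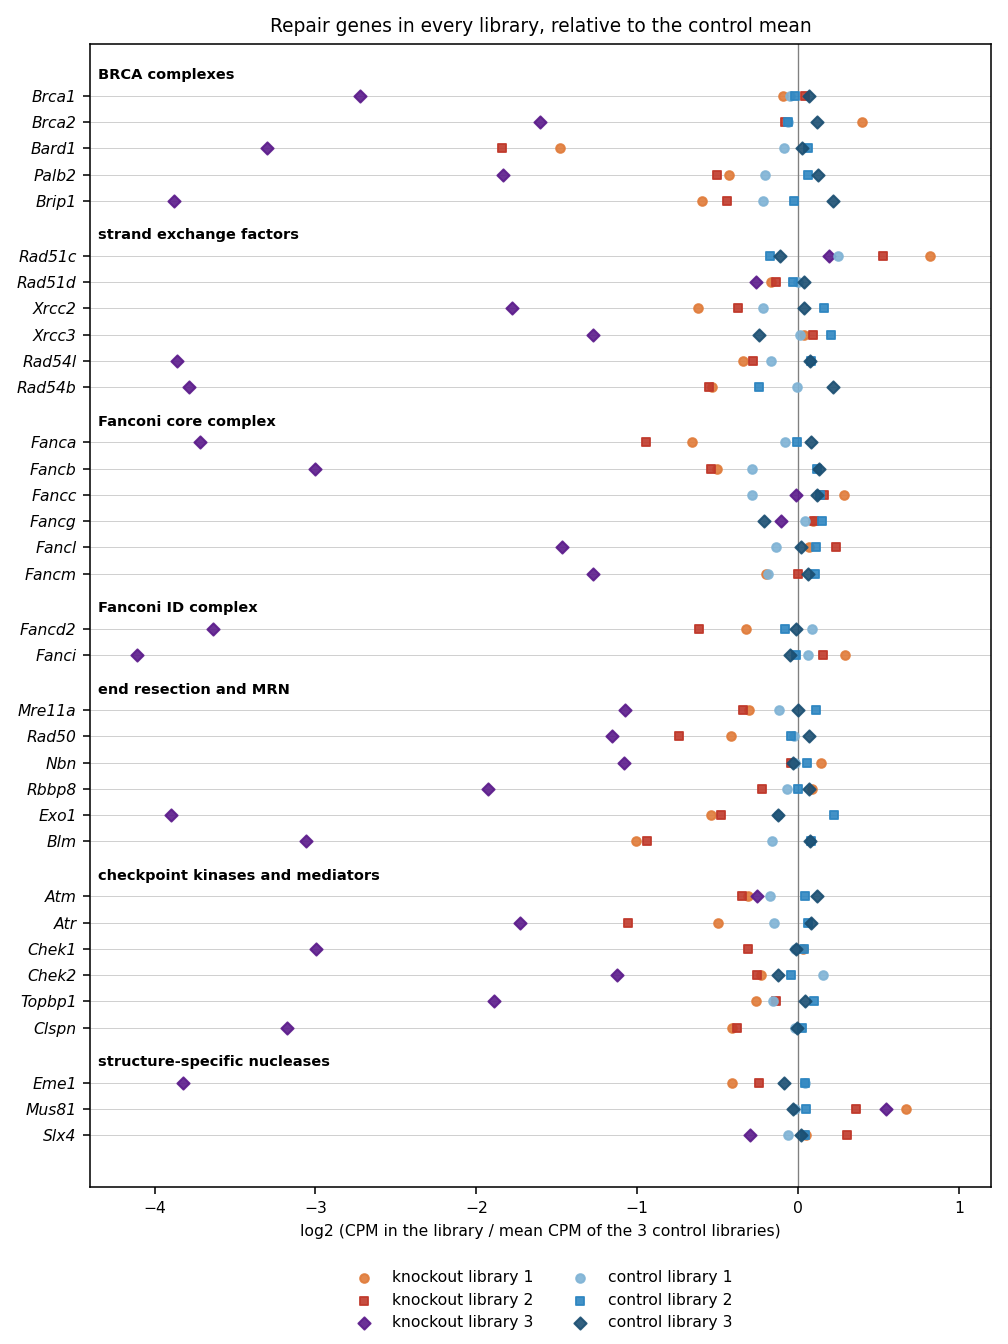
Level of each of the 34 repair genes in each library, as log2 of its CPM over the mean CPM of the 3 control libraries. Orange circles, red squares and purple diamonds are knockout libraries 1, 2 and 3, and the blue symbols are control libraries. The purple diamonds lie farthest left for most genes, while Rad51c, Rad51d, Fancc, Fancg, Atm, Mus81 and Slx4 have all 6 symbols within 1 log2 unit of the control mean.

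With all 3 knockout libraries, 4 of the 34 genes changed. Bard1, Rad50 and Atr fell and Mus81 rose, so that 3 of 34 were called lower where the background over all genes tested was 15.4%, and 1 of 34 higher where it was 20.3%. The shares called, 8.82% and 2.94%, were below the background. Between the 3 knockout libraries the repair genes had a median SD of 0.93 on the log2 CPM scale, against 0.13 between the 3 control libraries, and over all genes tested the corresponding values were 0.33 and 0.13. The median SE of their log2 fold changes was 0.42, and 0.13 when knockout library 3 was left out. Without that library 13 of the 34 changed. Of these, 11 fell (32.4%, background 22.8%) and 2 rose (5.88%, background 25.5%), and the 13 included all 4 of the genes named above. All 3 knockout libraries lay below all 3 control libraries for 19 of the 34 genes, where the background was 27.9%, and above them for 1, where it was 29.7%. Knockout libraries 1 and 2 both lay below all 3 control libraries for 19 of the 34 genes, where the background was 33.7%, and above them for 5, where it was 36.5%. The median log2 fold change of the 34 was -0.55 with all libraries and -0.28 without knockout library 3, beside 0.03 and 0.02 over all genes tested.

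**Figure D2:**
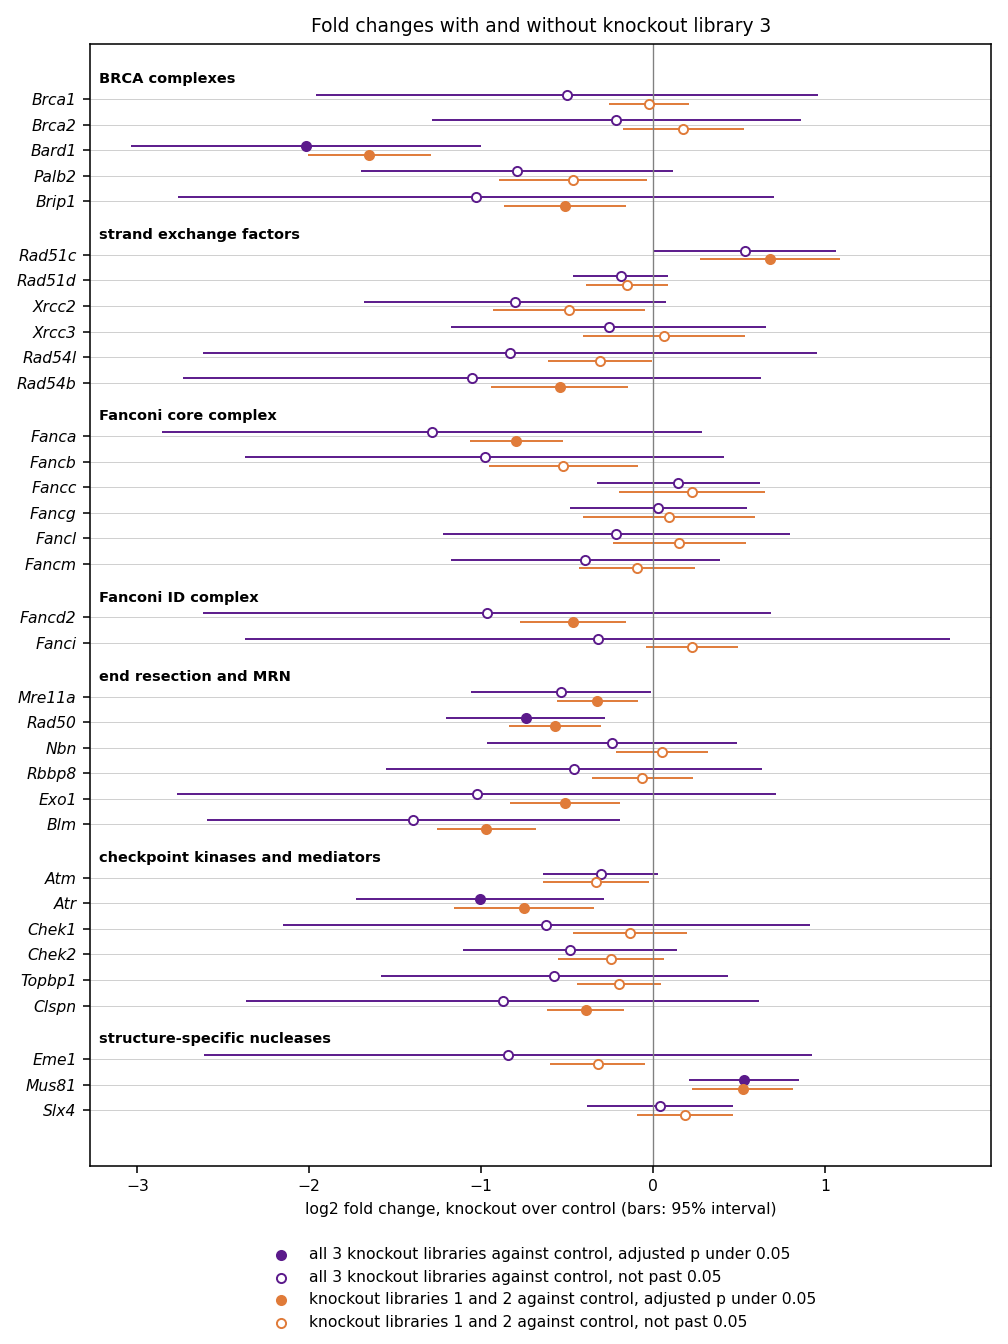
Log2 fold change of knockout over control for each repair gene, with its 95% interval, from all 3 knockout libraries (purple, upper of each pair) and from knockout libraries 1 and 2 only (orange, lower). Filled symbols mark adjusted p under 0.05, which 4 genes reached with all libraries and 13 without knockout library 3, and the intervals are narrower without it for all 34 genes.

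The 13 calls made without knockout library 3 rested on 2 knockout libraries, and the removal of a further library moved some of them. Where that was knockout library 1 or 2, only 1 knockout library was left. The spread in those fits was then that between control libraries alone. Bard1, Blm, Fanca, Exo1, Rad50, Atr and Clspn, all 7 lower, were called under each of 9 further settings: 4 other tools, scalings or forms of the counts, and removal of each of the other 5 libraries. Brip1, Rad51c, Rad54b, Fancd2, Mre11a and Mus81 lost their call when at least 1 further library was left out. Without control library 3 the number lower was 7 of 34, or 20.6%, where the background was 17.4%, so that this share lies close to the background. Of the 2 genes called higher, none was called without knockout library 1, and only Mus81 without control library 2 or control library 3.

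Among the genes of the BRCA complexes, Bard1 had the largest fold change of the 34 repair genes that were called. BARD1 is the obligate partner of BRCA1 in a ubiquitin ligase, and Bard1 had 10.6, 8.23 and 3.001 CPM in knockout, against 27.8, 30.8 and 30.02 CPM in control. The knockout libraries all lay far below control, and knockout libraries 1 and 2 were already at about the same distance from control as from knockout library 3. The log2 fold change of Bard1 was -2.02 (SE 0.425, 95% interval -3.04 to -1.001, adjusted p = 0.0126), or 4.05-fold lower. Leaving out knockout library 3 gave -1.65 (SE 0.156, adjusted p = 0.000106), and the call held without any 1 of the 6 libraries, with adjusted p of at most 0.047.

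Brca1 itself had a different pattern from its partner. It had 54.2, 59.7 and 8.76 CPM in knockout, against 55.9, 57.1 and 60.8 CPM in control. Knockout libraries 1 and 2 overlapped control, and knockout library 3 alone was low. The log2 fold change of Brca1 was -0.50 (SE 0.611, adjusted p = 0.555), and without knockout library 3 it was -0.02, with a 95% interval of -0.25 to 0.21 (adjusted p = 0.878). For Brca2, whose product acts after resection, the CPM were 48.01, 34.5 and 12 in knockout, against 35.01, 34.97 and 39.6 in control, with knockout library 1 the highest of all 6. Neither comparison of Brca2 passed (adjusted p = 0.738 with all libraries, 0.374 without knockout library 3).

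Palb2, which bridges BRCA1 and BRCA2, had 7.96, 7.55 and 3.001 CPM in knockout, against 9.27, 11.2 and 11.7 CPM in control, with no overlap between the groups. It did not pass (adjusted p = 0.149, and 0.0717 without knockout library 3). Brip1, the helicase that binds BRCA1 and is also known as FANCJ, had 20.3, 22.6 and 2.08 CPM in knockout, against 26.3, 30.1 and 35.6 CPM in control. Knockout library 3 had 9.72% of the mean of the other knockout libraries, and the call depended on it: adjusted p was 0.307 with it and 0.0248 without it, where Brip1 fell 1.43-fold. That call was lost when knockout library 1, control library 2 or control library 3 was also left out.

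Rad51c, Rad51d, Xrcc2 and Xrcc3 encode proteins that assemble into small complexes and help strand exchange, and they did not share a pattern. Rad51c had 22.9, 18.7 and 14.8 CPM in knockout, against 15.4, 11.5 and 12.03 CPM in control. Knockout libraries 1 and 2 were above all control libraries, while knockout library 3 overlapped them. Rad51c rose 1.60-fold when knockout library 3 was left out (log2 0.68, SE 0.178, adjusted p = 0.0136), and with it the adjusted p was 0.106. The call was lost when knockout library 1, control library 2 or control library 3 was also left out. Rad51d differed little between any libraries, at 32.9, 33.6 and 30.9 CPM in knockout, against 36.9, 36.1 and 37.9 CPM in control. All knockout values lay just below control, and neither comparison passed (adjusted p = 0.245 and, without knockout library 3, 0.265, with a 95% interval of the log2 fold change of -0.39 to 0.09).

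Xrcc2 had 7.79, 9.26 and 3.49 CPM in knockout, against 10.3, 13.4 and 12.3 CPM in control, all below control, and did not pass (adjusted p = 0.133, and 0.0647 without knockout library 3). For Xrcc3 the levels were 8.06, 8.38 and 3.25 CPM in knockout, against 7.91, 9.04 and 6.62 CPM in control, so that only knockout library 3 was low (adjusted p = 0.629, and 0.814 without knockout library 3). The RAD54 motor proteins help drive strand exchange, and both of their genes were lowest by far in knockout library 3. Rad54l had 21.03, 21.95 and 1.84 CPM in knockout, against 23.7, 28.2 and 28.01 CPM in control, and Rad54b had 11.7, 11.5 and 1.22 CPM in knockout, against 16.8, 14.3 and 19.6 CPM in control. Both genes had all knockout libraries below all control libraries. Without knockout library 3, Rad54b fell 1.46-fold (adjusted p = 0.0319, a call lost when knockout library 2, control library 1 or control library 3 was also left out) and Rad54l had an adjusted p of 0.0849; with it neither passed (adjusted p = 0.284 for Rad54b and 0.42 for Rad54l).

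Within the Fanconi core complex, 1 of the 6 genes fell without knockout library 3 (16.7%, background 22.8%) and none rose. None changed with it, where 0 had an unadjusted p under 0.05 in edgeR and 1 in both DESeq2 and limma-voom. DESeq2 and limma-voom called 0 after adjustment. Fanca, which encodes a scaffold subunit, had 52.96, 43.5 and 6.37 CPM in knockout, against 79.1, 83.4 and 88.6 CPM in control. The groups did not overlap, and Fanca fell 1.73-fold without knockout library 3 (log2 -0.79, SE 0.118, adjusted p = 0.000996). With knockout library 3 the fold was 2.44 but the SE was 0.657 on the log2 scale, and the adjusted p was 0.172. Fancb, a subunit next to the catalytic FANCL, had 8.99, 8.77 and 1.59 CPM in knockout, against 10.5, 13.8 and 13.97 CPM in control (adjusted p = 0.231, and 0.0508 without knockout library 3).

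The other core genes held their level in knockout libraries 1 and 2. Fancl, the ubiquitin ligase subunit, had 11.01, 12.3 and 3.80 CPM in knockout, against 9.55, 11.3 and 10.6 CPM in control, low in knockout library 3 only (adjusted p = 0.721, and 0.48 without it). Fancm, the translocase that anchors the complex to DNA, had 17.9, 20.4 and 8.45 CPM in knockout, against 18.02, 22.1 and 21.4 CPM in control, again clearly low in knockout library 3 only (adjusted p = 0.383, and 0.622 without it). Fancc and Fancg kept near the control level even there. Fancc had 13.2, 12.1 and 10.7 CPM in knockout, against 8.89, 11.9 and 11.7 CPM in control. Fancg had 6.54, 6.57 and 5.70 CPM in knockout, against 6.32, 6.78 and 5.29 CPM in control. For both genes the groups overlapped, and the 95% intervals of the log2 fold changes over all libraries were -0.32 to 0.62 for Fancc and -0.48 to 0.55 for Fancg (adjusted p = 0.589 and 0.922). Leaving out knockout library 3 gave adjusted p = 0.346 for Fancc and 0.739 for Fancg.

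The FANCD2 and FANCI proteins form the heterodimer that the core complex modifies. Relative to knockout libraries 1 and 2, their 2 genes stood at a median of 8.02% in knockout library 3. The medians of the 6 other functional groups ran from 29.1% to 71.4%. Single genes of those groups lay between Fanci and Fancd2, such as Rad54l at 8.55% and Eme1 at 8.85%. Fancd2 and Fanci together summed to 56.0, 48.7 and 3.98 CPM in knockout, against 59.7, 54.7 and 55.5 CPM in control. Fanci had 31.1, 28.3 and 1.47 CPM in knockout, against 26.5, 25.1 and 24.5 CPM in control. Knockout libraries 1 and 2 lay above all control libraries, while knockout library 3 held 4.95% of their mean, the lowest such share among the 34 genes, and the log2 fold change had a 95% interval of -2.37 to 1.73 (adjusted p = 0.795, and 0.14 without knockout library 3). Fancd2 had 24.9, 20.4 and 2.51 CPM in knockout, against 33.2, 29.6 and 30.9 CPM in control, all knockout below control. It fell 1.38-fold without knockout library 3 (adjusted p = 0.0212), a call lost when knockout library 2, control library 1 or control library 3 was also left out, and did not pass with it (adjusted p = 0.313). The antisense gene Fancd2os had no count in any library.

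The MRE11, RAD50 and NBS1 proteins form the MRN complex, which binds broken ends and activates ATM. Rad50 had 72.1, 57.8 and 43.2 CPM in knockout, against 94.5, 93.7 and 101 CPM in control. All knockout libraries lay below all control libraries, and Rad50 fell 1.67-fold (log2 -0.74, SE 0.193, adjusted p = 0.0261), and 1.48-fold without knockout library 3 (adjusted p = 0.00473). The call of Rad50 was lost without knockout library 2 (adjusted p = 0.0677) and without control library 1, 2 or 3 (adjusted p = 0.0754, 0.0737 and 0.0869). Mre11a, the symbol the table uses for the nuclease gene Mre11, had 67.2, 65.6 and 39.4 CPM in knockout, against 76.8, 89.7 and 83.1 CPM in control. It lay below control in every knockout library too, with adjusted p = 0.102 over all libraries and 0.031 without knockout library 3, where it fell 1.25-fold; that call was lost when knockout library 2, control library 2 or control library 3 was also left out. Nbn, which encodes NBS1, had 31.7, 27.9 and 13.6 CPM in knockout, against 28.4, 29.9 and 28.1 CPM in control, and was clearly low in knockout library 3 only (adjusted p = 0.574, and 0.737 without knockout library 3).

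Resection of the ends is begun by CtIP and extended by EXO1 or by DNA2 with the BLM helicase. Rbbp8, the gene of CtIP, had 40, 32.2 and 9.92 CPM in knockout, against 35.99, 37.6 and 39.6 CPM in control, with only knockout library 3 clearly low (adjusted p = 0.465, and 0.715 without knockout library 3). Exo1 had 29.4, 30.7 and 2.88 CPM in knockout, against 39.3, 50 and 39.2 CPM in control. Blm had 22.4, 23.5 and 5.39 CPM in knockout, against 40.1, 47.5 and 47.3 CPM in control. Exo1 and Blm had no overlap between the groups and were lower by far in knockout library 3 than in the other knockout libraries. With that library left out, Exo1 fell 1.42-fold (adjusted p = 0.0169) and Blm 1.96-fold (log2 -0.97, SE 0.125, adjusted p = 0.000496). Over all libraries the adjusted p was 0.311 for Exo1 and 0.0719 for Blm, and Blm passed by DESeq2 (adjusted p = 0.0152) and limma-voom (adjusted p = 0.0406).

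The apical checkpoint kinases differed from each other. Atr had 29.3, 19.9 and 12.5 CPM in knockout, against 37.3, 43.2 and 43.7 CPM in control. The groups did not overlap, and the knockout libraries were spread over a wide range. Atr fell 2.01-fold (log2 -1.01, SE 0.301, adjusted p = 0.0406) and 1.68-fold without knockout library 3 (adjusted p = 0.00918). That call over all libraries was lost without knockout library 2 (adjusted p = 0.1002) and without control library 1, 2 or 3 (adjusted p = 0.0869, 0.113 and 0.114). Atm had 20.5, 20.04 and 21.4 CPM in knockout, against 22.7, 26.3 and 27.6 CPM in control. Its knockout values lay slightly below control and close to each other, knockout library 3 included, and did not pass (log2 fold change -0.30, SE 0.140, adjusted p = 0.134, and 0.0738 without knockout library 3).

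Among the genes whose products act with ATR, those for the mediators and for CHK1 were low in knockout library 3. Topbp1, which activates ATR, had 153, 167 and 49.5 CPM in knockout, against 165, 197 and 189 CPM in control. Clspn, which encodes claspin and brings CHK1 to ATR, had 41.6, 42.6 and 6.12 CPM in knockout, against 54.6, 56.3 and 54.99 CPM in control. Clspn lay below control in each knockout library, whereas knockout library 2 overlapped control for Topbp1. Chek1 had 20.9, 16.5 and 2.57 CPM in knockout, against 20.3, 21.02 and 20.3 CPM in control. Chek2, the ATM-dependent kinase, had 20.2, 19.8 and 10.8 CPM in knockout, against 26.4, 23.03 and 21.7 CPM in control, and kept 54.1% of the mean of the other knockout libraries in knockout library 3, where Chek1 kept 13.7%. Clspn fell 1.31-fold without knockout library 3 (adjusted p = 0.0112), and Topbp1, Chek1 and Chek2 did not pass (adjusted p = 0.163, 0.48 and 0.171). None of these 4 passed over all libraries (adjusted p = 0.313 for Clspn, 0.326 for Topbp1, 0.484 for Chek1 and 0.194 for Chek2).

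MUS81 is a nuclease that cuts branched DNA and needs a partner, most often EME1, while SLX4 is the scaffold that gathers such nucleases. Mus81 was the only repair gene called higher with all libraries, at 40.3, 32.5 and 36.99 CPM in knockout, against 25.04, 26.2 and 24.8 CPM in control. Every knockout library was above every control library, knockout library 3 among them. Mus81 rose 1.44-fold (log2 0.53, SE 0.134, adjusted p = 0.0231), and by the same amount without knockout library 3 (log2 0.52, adjusted p = 0.0103). The call was lost without knockout library 1 (adjusted p = 0.0566) and without control library 1, 2 or 3 (adjusted p = 0.0888, 0.0967 and 0.112). Eme1 had 24.1, 27.1 and 2.27 CPM in knockout, against 33.1, 32.95 and 30.1 CPM in control. It stood below control in all knockout libraries and was far lower in knockout library 3 than in the others (adjusted p = 0.408, and 0.0543 without knockout library 3). Slx4 had 31.4, 37.5 and 24.6 CPM in knockout, against 29.02, 31.3 and 30.7 CPM in control, with overlapping groups (adjusted p = 0.879, and 0.241 without knockout library 3).

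Proteins of these pathways often act together, though not only in fixed pairs. Counts of one gene of a pair per 100 counts of the other were compared within each library, which removes the library's depth. The 9 pairs were chosen after the values had been seen. With 3 libraries against 3 the exact two-sided permutation test cannot go below p = 0.1. The lowest value found after adjustment over the 9 pairs was 0.15. For every 100 Brca1 counts there were 19.5, 13.8 and 34.3 Bard1 counts in knockout, against 49.8, 54.0 and 49.4 in control. The ratio was lower in every knockout library, and least so in knockout library 3, where Brca1 was low as well (exact p = 0.1, adjusted 0.15). For every 100 Mus81 counts there were 60.0, 83.3 and 6.13 Eme1 counts in knockout, against 132, 126 and 122 in control (exact p = 0.1, adjusted 0.15). Here knockout library 3 was farthest from control.

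For the heterodimer, 125, 139 and 58.5 Fanci counts per 100 Fancd2 counts were found in knockout, against 79.8, 84.9 and 79.4 in control. The knockout libraries lay on both sides of control (exact p = 0.4, adjusted 0.4). Rad51c and Xrcc3 encode the partners of the CX3 complex, and Rad51c counts per 100 Xrcc3 counts were 285, 223 and 457 in knockout, against 195, 127 and 182 in control (exact p = 0.1, adjusted 0.15). Rad50 and Mre11a kept a nearly even ratio, with 107, 88.1 and 109.6 Rad50 counts per 100 Mre11a counts in knockout, against 123, 104 and 122 in control. Those groups overlapped (exact p = 0.3, adjusted 0.337). In the other 4 pairs, Xrcc2 per Rad51d and Palb2 per Brca2 were lower and Chek1 per Clspn was higher in every knockout library than in every control library (exact p = 0.1, adjusted 0.15 for each), and Nbn per Mre11a overlapped (exact p = 0.2, adjusted 0.257).

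**Figure D3:**
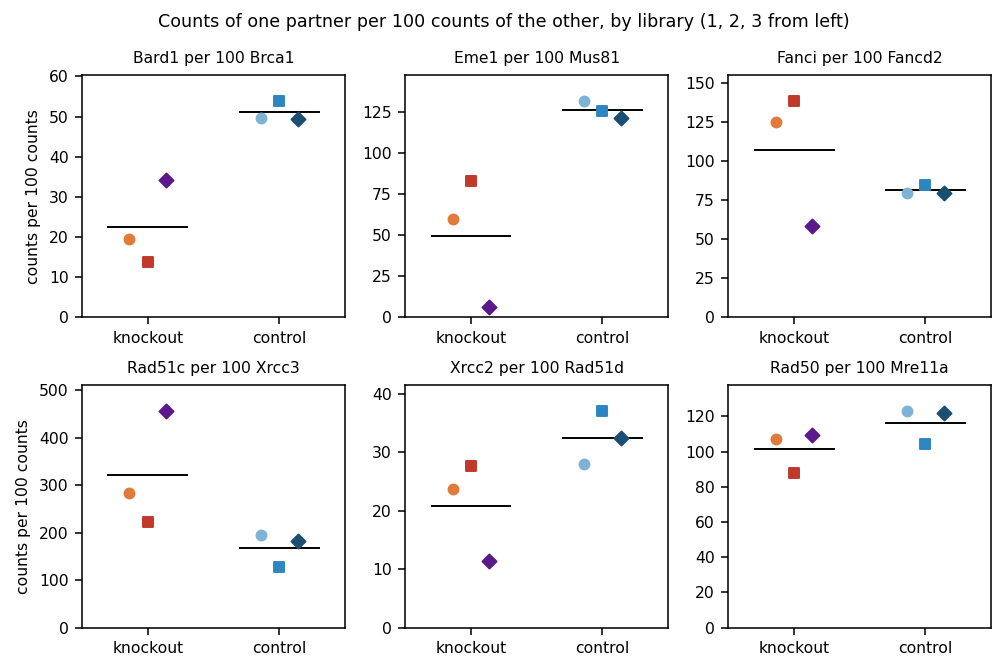
Counts of one partner per 100 counts of the other in 6 of the 9 pairs, in knockout (left) and control (right), with libraries 1, 2 and 3 of each group from left to right and a line at the group mean. Bard1 per Brca1 and Eme1 per Mus81 lie below all control libraries in every knockout library, and Fanci per Fancd2 lies above control in knockout libraries 1 and 2 and below it in knockout library 3.

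The repair genes were not equally low in knockout library 3. Among those lowest in it relative to the mean of knockout libraries 1 and 2 were Fanci at 4.95%, Rad54l at 8.55%, Eme1 at 8.85%, Exo1 at 9.58%, Brip1 at 9.72%, Rad54b at 10.6% and Fancd2 at 11.1%. Near the level of the other knockout libraries were Atm at 106%, Mus81 at 102%, Rad51d at 92.9%, Fancg at 86.9% and Fancc at 84.8%. Each extreme held genes of several functional groups. Members of one complex stood far apart, such as Fanca at 13.2% and Fancc at 84.8% in the Fanconi core, or Exo1 at 9.58% and Mre11a at 59.4% in end resection. These shares describe a library set apart because its values had been seen, and were not tested.

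**Figure D4:**
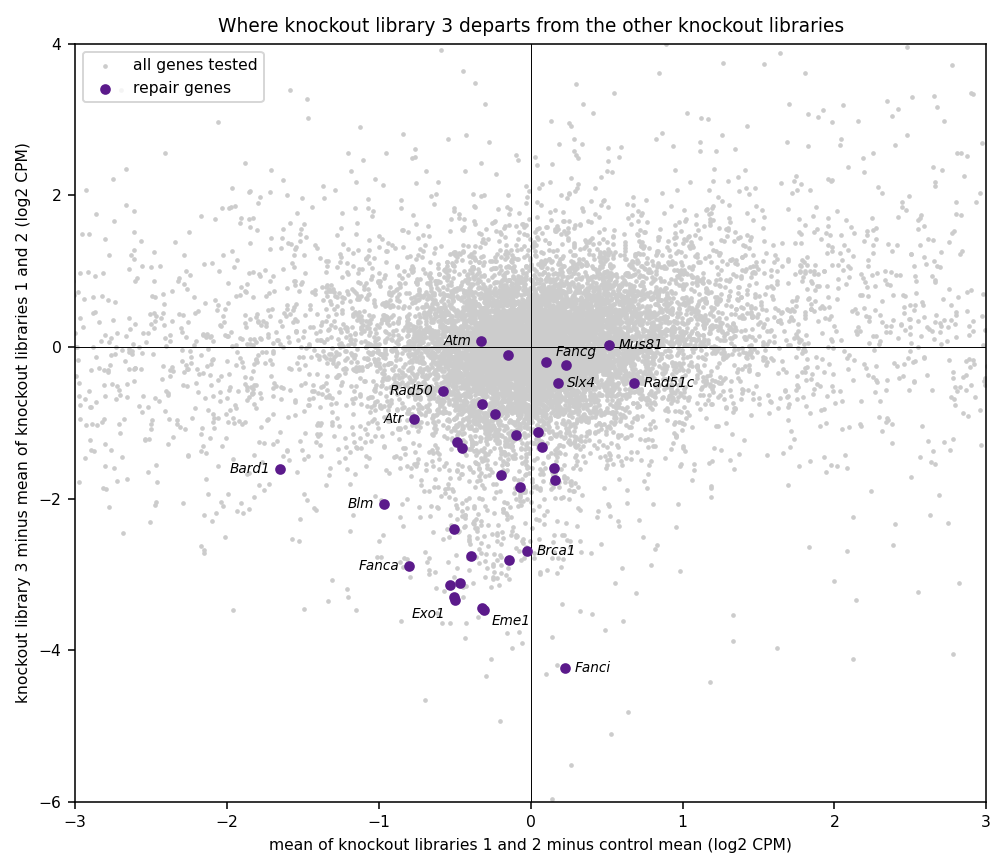
Each gene's log2 CPM in the mean of knockout libraries 1 and 2 minus control (horizontal) against its log2 CPM in knockout library 3 minus the mean of knockout libraries 1 and 2 (vertical), for repair genes (purple) and all genes tested (grey, of which 845 lie outside the axes). Repair genes run from Atm and Mus81 near 0 on the vertical axis to Fanci at -4.24, and Bard1 lies farthest left of them.

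Markers of dividing cells moved with the repair genes in knockout library 3. The 27 replication genes summed to 3475, 3545 and 1047 CPM in knockout, against 3020 to 3282 CPM in control libraries. A large part was Rrm2, with 786, 879 and 376 CPM in knockout, against 322, 364 and 311 CPM in control. The higher sums in knockout libraries 1 and 2 were thus not shared by the list. Both lay above all control libraries for 6 of the 27 genes (background 36.5%) and below them for 8 (background 33.7%). The 20 mitosis genes summed to 3435, 3209 and 596 CPM in knockout, against 3977 to 4189 CPM in control libraries. Knockout library 3 was the lowest of the 6 libraries for 26 of the 27 replication genes and for all 20 mitosis genes, and stood at a median of 23.2% and 17.7% of the mean of knockout libraries 1 and 2, against 32.2% for the repair genes. The part of cell division in the level of the repair genes was not tested. Of the mitosis genes 0 of 20 were called by edgeR with all libraries, with 0 at an unadjusted p under 0.05. DESeq2 called 1 lower, where its background was 20%, and limma-voom 0. Without knockout library 3, 7 fell (35%, background 22.8%). The proliferation marker Mki67 had 389.6, 297 and 48.3 CPM in knockout, against 420.4, 341 and 438 CPM in control (adjusted p = 0.433, and 0.275 without knockout library 3). Top2a, the mitotic topoisomerase gene, had 668, 557 and 112 CPM in knockout, against 828, 840.3 and 882 CPM in control (adjusted p = 0.249, and 0.00493 without knockout library 3). Of the replication genes, Rrm2, a subunit of ribonucleotide reductase, rose 2.05-fold (adjusted p = 0.0419) and the other 26 did not pass. The share called higher was 3.70%, where the background was 20.3%. Without knockout library 3, 2 rose (7.41%, background 25.5%) and 4 fell (14.8%, background 22.8%). limma-voom called 0 of the 27, with 1 at an unadjusted p under 0.05 (adjusted p = 0.0575 for Rrm2). The Rrm2 call was lost without knockout library 1 or 2, and when any 1 of the 3 control libraries was left out (adjusted p = 0.142 at most).

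The median log2 fold changes with all libraries were -0.14 for other homologous recombination genes, -0.17 for other Fanconi pathway genes, -0.10 for end joining genes, -0.26 for other checkpoint genes, -0.41 for mismatch repair genes, 0.23 for p53 targets, -0.51 for replication genes and -0.72 for mitosis genes, beside 0.03 over all genes tested. Leaving out knockout library 3 moved all 8 medians toward 0, and that of the other checkpoint genes changed sign. The medians were then -0.02 for other homologous recombination genes, -0.08 for other Fanconi pathway genes, -0.09 for end joining genes, 0.01 for other checkpoint genes, -0.19 for mismatch repair genes, 0.03 for p53 targets, -0.08 for replication genes and -0.26 for mitosis genes, beside 0.02 over all genes tested. Of 32 other homologous recombination genes 1 rose (3.1%, background 20.3%), the nuclease subunit gene Eme2 (log2 1.01, adjusted p = 0.0424), and 31 did not pass. The Eme2 call held without knockout library 3 and was lost when any 1 of the other 5 libraries was left out (adjusted p = 0.164 at most) and with no filter on low counts (adjusted p = 0.0614). Without knockout library 3, 3 of the 32 rose (9.38%, background 25.5%) and 6 fell (18.8%, background 22.8%).

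Of 14 other Fanconi pathway genes 3 fell (21.4%, background 15.4%) and 1 rose (7.14%, background 20.3%). Ube2t, which encodes the ubiquitin-conjugating enzyme that works with FANCL, fell 2.30-fold (adjusted p = 0.0204), Ercc1, a subunit of the nuclease that unhooks crosslinks, 2.34-fold (adjusted p = 0.00441) and the crosslink nuclease gene Dclre1a 1.62-fold (adjusted p = 0.0104). Mad2l2, a subunit of translesion polymerase zeta and of the shieldin complex, rose 1.85-fold (adjusted p = 0.0152). Ercc1 and Dclre1a kept their calls when any library was left out, while Ube2t and Mad2l2 lost theirs when any 1 of the 3 control libraries was left out (adjusted p = 0.0714 and 0.072 at most). There were 4 lower (28.6%, background 22.8%) and 1 higher (7.14%, background 25.5%) without knockout library 3.

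Of 12 end joining genes, which serve the main alternative to recombination, 2 fell and 10 did not pass, with or without knockout library 3. The share lower was 16.7%, where the background was 15.4% with that library and 22.8% without it. Rif1, which limits end resection, had 40.3, 38.6 and 40.5 CPM in knockout, against 65.2, 85.2 and 87.9 CPM in control, and fell 1.996-fold (adjusted p = 0.00345). Lig4, the ligase of end joining, fell 1.80-fold (adjusted p = 0.00646). Both were at about the same level in all 3 knockout libraries and kept their calls when any library was left out. Knockout library 3 stood at a median of 94.9% of the mean of knockout libraries 1 and 2 over these 12 genes.

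Of 15 other checkpoint genes 2 fell (13.3%, background 15.4%) and 1 rose (6.67%, background 20.3%). Leaving out knockout library 3 gave 3 lower (20%, background 22.8%) and 2 higher (13.3%, background 25.5%). Hus1, a subunit of the 9-1-1 clamp, fell 2.09-fold (adjusted p = 0.0103) and Cdc25a, a phosphatase that CHK1 restrains, 2.30-fold (adjusted p = 0.013, 0.0521 without control library 2). Atrip, the partner of ATR, rose 1.42-fold (adjusted p = 0.0291), a call lost without knockout library 1, or when any 1 of the 3 control libraries was left out (adjusted p = 0.134 at most), and with no filter on low counts (adjusted p = 0.0547). Msh6, a mismatch repair gene, fell 2.57-fold (adjusted p = 0.0214), a call lost when any 1 of the 3 control libraries was left out (adjusted p = 0.0689 at most).

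Of 17 p53 targets tested, out of 18 listed, 4 rose (23.5%, background 20.3%) and 1 fell (5.88%, background 15.4%). limma-voom called 2 higher and 1 lower (adjusted p = 0.0987 for Trp53inp1), where its background was 18.6% higher and 16.3% lower. Phlda3, which restrains AKT signalling, rose 2.62-fold (adjusted p = 0.0012), the apoptosis gene Bbc3 2.13-fold (adjusted p = 0.0142) and Trp53inp1 14.9-fold (adjusted p = 0.024), and the exonuclease gene Aen fell 2.14-fold (adjusted p = 0.00197). Trp53inp1 had 4.69, 8.38 and 50.2 CPM in knockout, against 1.97, 0.835 and 1.40 CPM in control, and rose 4.65-fold without knockout library 3. The calls of Phlda3 and Aen held when any library was left out. Bbc3 lost its call without control library 1 or 2 and Trp53inp1 when any 1 of the 3 control libraries was left out (adjusted p = 0.0716 and 0.0954 at most). Of the 17, 6 rose (35.3%, background 25.5%) and 3 fell (17.6%, background 22.8%) without knockout library 3. Knockout library 3 was the highest of the 6 libraries for 9 of these 17 genes and the lowest for 2, with background shares of 33.7% and 31.8%.

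**Figure D5:**
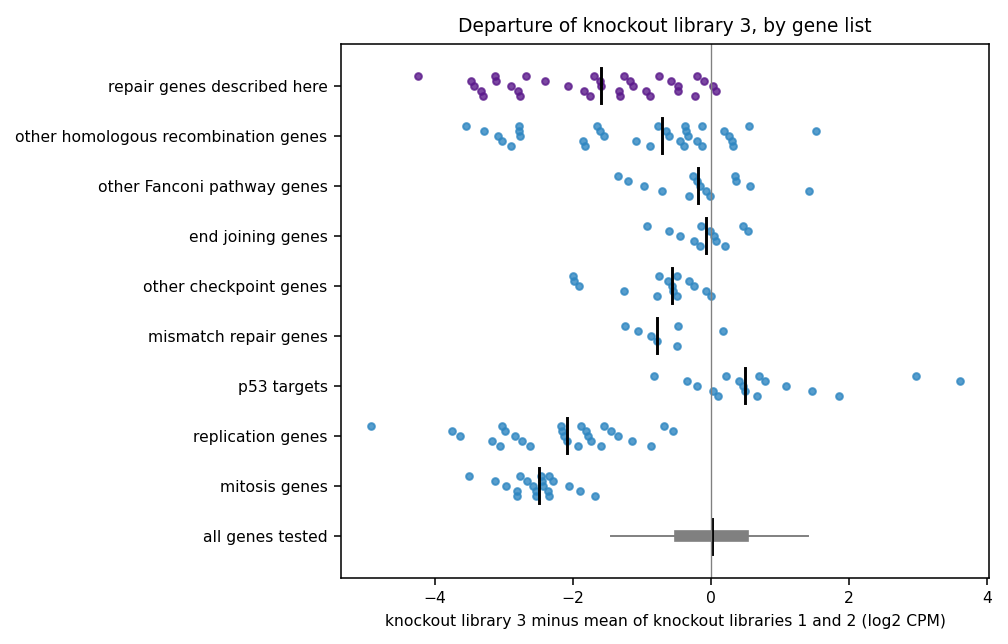
Log2 CPM in knockout library 3 minus the mean of knockout libraries 1 and 2, for each tested gene (point) of each list, with a black line at the list median. The bar and line for all genes tested span the middle 50% and 90% of genes. The medians are -1.60 for the repair genes, -2.09 for replication genes, -2.50 for mitosis genes, -0.08 for end joining genes and 0.02 for all genes tested.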

How the data were processed

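The authors deposited 1 table of whole-number counts per gene symbol for the 6 libraries. The submitters' processing notes list STAR 2.7.1a, featureCounts and the build hg38 without saying what each was used for. How strand was handled and which annotation was used is not stated, and overlapping genes were not checked, since the reference at hand is human. Wherever control library 1 had 0 and another library did not, the row's values were all multiples of 11. These 1704 rows, none of them a repair gene, were divided by 11.

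Knockout was compared with control in edgeR 4.0.16 (R 4.3.3) by the quasi-likelihood test with robust dispersions, after filterByExpr and TMM scaling. Adjustment by Benjamini-Hochberg ran over all genes tested, with a threshold of 0.05. Log2 CPM used a prior count of 2, and the biological coefficient of variation was 28%. The fit was tested on simulated data for 12182 genes. When 100 genes were made to differ 2-fold, 28% were recovered. With 100 genes made to differ 4-fold, 88% were recovered. There were 10 false calls. A gene that did not pass may therefore still differ 2-fold. Alternatives used DESeq2 1.42.0, limma 3.58.1, other scalings and filters, and the removal of each library. The members and lists were chosen with earlier results of these data known. All 34 repair genes and Elavl1 are named. From each other pathway list, up to 4 called genes with the smallest p are named, or the 2 with the highest mean CPM where none was called. From the marker lists, genes at or near 0 and up to 2 with the highest mean CPM are named. The epithelial markers Epcam, Cdh1, Cldn4, Krt6a and Dsp are named besides. Some genes that this rule names are not reported here.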

Additional observations from a re-analysis of the deposited data

How the results depend on the processing

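The 34 repair genes gave 3 lower and 1 higher with the counts as deposited, without the rows divided by 11, with DESeq2's size factors and with no filter on low counts, although Eme2 and Atrip of the other lists lost their calls with no filter; DESeq2 and limma-voom gave 4 lower and 1 higher. A test against a 1.5-fold change called 1 lower and 0 higher, and 1307 genes higher and 973 lower in all, against 2493 and 1899. Leaving out each library in turn gave 1 to 11 repair genes lower and 0 to 2 higher, and 1130 to 2843 lower and 1166 to 3178 higher among all genes. For knockout libraries 1 and 2 against control, alternatives added after seeing the data gave 11 to 13 lower and 2 higher with other tools, scalings or the counts as deposited, where 22% to 24.8% of all genes were lower and 23.9% to 26% higher, and 7 to 14 lower and 0 to 2 higher when a further library was left out, where 17.4% to 23.5% of all genes were lower and 19.1% to 24.7% higher. With 2 libraries left in a group, or 1, the fit assumes that it varies like the others. With the replicate number as a block, 2 repair genes were lower and 0 higher, and Atr and Mus81 lost their calls (adjusted p = 0.054 and 0.0621). Nothing in the labels says that the numbers pair the libraries. The deviations of same-numbered libraries from their group means correlated at -0.05, 0.26 and 0.02. Not every library correlated best with its own number, although the value for number 2 was the largest of all. With 3 libraries in a group, these correlations cannot tell whether the libraries are paired.

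The log2 fold change changed sign in some alternatives for genes that were not called. For Fancg it was -0.000441 with no filter and -0.0894 to 0.096 when a library was left out. Over the removal of each library it ran from -0.11 to 0.19 for Slx4, -0.65 to 0.18 for Brca2, -0.47 to 0.065 for Xrcc3, -0.50 to 0.15 for Fancl, -0.76 to 0.23 for Fanci, -0.47 to 0.0521 for Nbn and -0.0888 to 0.00615 for Elavl1. In Brca2, Xrcc3, Fancl, Fanci and Nbn the sign turned when knockout library 3 was left out. The least counted repair gene in a knockout library had 20 counts.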
